A study of Sus scrofa with 2 samples.

Results

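The miRNAs described here belong to kinds known in other mammals to be made without the Microprocessor. This nuclear complex of Drosha and DGCR8 cuts most miRNA hairpins out of their primary transcripts. How the miRNAs described here are made in the pig was not tested. They were taken by name from 2 lists of small RNA tags: miR-320 and its lettered forms miR-320a to miR-320d, miR-484, and the mirtrons miR-877 and miR-1224. Of 1385 names and arms in either list, 9 belonged to these miRNAs: 7 of 904 in the 180-day library and 9 of 1184 in the 30-day library. They held 2715 of 852209 listed reads (0.319%) at 180 days and 72710 of 7525725 (0.966%) at 30 days.

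The tissue was testis of boars of the Junmu-1 line, a white pig bred in China, taken at 180 days of age, when the animals were sexually mature, and at 30 days, when they were immature. Small RNA was sequenced, and at each age the RNA of 3 boars was pooled into 1 library, so there was no spread between animals, no test and no p-value. All intervals are exact 95% intervals for counting error, and PCR copies of a molecule cannot be recognised, so they are too narrow for a comparison of ages. In whole tissue, fewer cells of a type and less RNA per cell cannot be told apart. The gonadal miRNA miR-202-5p was among the leaders of both lists, at 90885 RPM at 180 days and 53505 RPM at 30 days (RPM, reads scaled to a pool of 1e+06 listed reads), whereas miR-34c of meiotic and later germ cells had 22617 RPM at 180 days and 5.98 RPM at 30 days. If the tag numbers rank all tags of a library by falling count, which no header states, the listed reads made up at most 7.08% of the 180-day library and 59.2% of the 30-day library at their lowest totals, so the values below describe the makeup of the listed miRNA pool.

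In mammals the hairpin of miR-320 is the end of a short capped transcript: transcription itself sets its 5′ end, Exportin-1 carries it out of the nucleus and Dicer alone cuts it, with the 3′ arm kept as the mature miRNA. miR-484 is likewise known as a DGCR8-independent but Dicer-dependent miRNA of mouse cells. Mirtrons are short introns that are spliced, debranched and folded into a Dicer substrate, so a splice site takes the place of the Drosha cut, and the arm at the 5′ end begins with the first bases of the intron. In human, miR-877 lies in an intron of ABCF1 and miR-1224 in one of VWA5B2.

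The listed entries fell into 4 seed groups, which are shown because the names within a group cannot be separated by their target-pairing bases. The seed, bases 2 to 8, is in capitals, and sequences are given 5′ to 3′ in DNA letters as deposited, with the species whose entry was listed.
human miR-320a: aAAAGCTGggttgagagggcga
human miR-484: tCAGGCTCagtcccctcccgat
mouse miR-877: gTAGAGGAgatggcgcaggg
chimpanzee miR-1224-5p: gTGAGGACtcgggaggtggagggt
No entry of any other name in either list had one of these seeds. Both mirtron entries began with GT, the bases that open most introns, as did 52 of all 1933 entries (2.69%). In the RefSeq gene table of Sscrofa11.1, a pig assembly that may not be the one the authors used, MIR320 lies on chromosome 14 and overlaps the annotated span of POLR3D, a subunit gene of RNA polymerase III. MIR1224 lies on chromosome 13, overlaps no other listed gene and is nearest to ALG3. Neither MIR484 nor MIR877 is listed there. Whether the pig miR-1224 hairpin lies in an intron was not tested.

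miR-320 was much the most abundant of these miRNAs and made up a smaller part of the pool in mature testis. All miR-320 names together had 2688 reads (3154 RPM) at 180 days and 72525 reads (9637 RPM) at 30 days. That is 0.315% (0.304 to 0.328%) of listed reads at 180 days and 0.964% (0.957 to 0.971%) at 30 days, 3.06-fold lower in the 180-day library (2.94 to 3.18). A name was called lower or higher when its ratio of 180 to 30 days passed 2-fold and the interval excluded 1. Of the 469 names and arms with 20 or more reads, 11.3% were called lower and 29.4% higher, and the median log2 ratio was 0.23. With TMM factors every log2 ratio is lower by a shift of -0.32, and with the lowest whole-library totals by a shift of -3.06. The family's ratio was 0.327 here, 0.261 with TMM factors and 0.0391 per read of the whole library. Here and below, values per read of the whole library use the lowest totals and take the tag numbers as ranks. No highest total was available for the 180-day library, so such values are not measured ratios.

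The human form miR-320a carried nearly all of these reads, with 2581 (3029 RPM) at 180 days and 70090 (9313 RPM) at 30 days. It ranked 45th among the names of the 180-day list and 22nd in the 30-day list. Its ratio was 0.325 (0.313 to 0.338), and 31 of the 469 names had a lower ratio with reads in both libraries. Its leading tag was number 1076 of the whole 180-day library and 48 of the 30-day library on the same reading of the numbers.

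**Figure D1:**
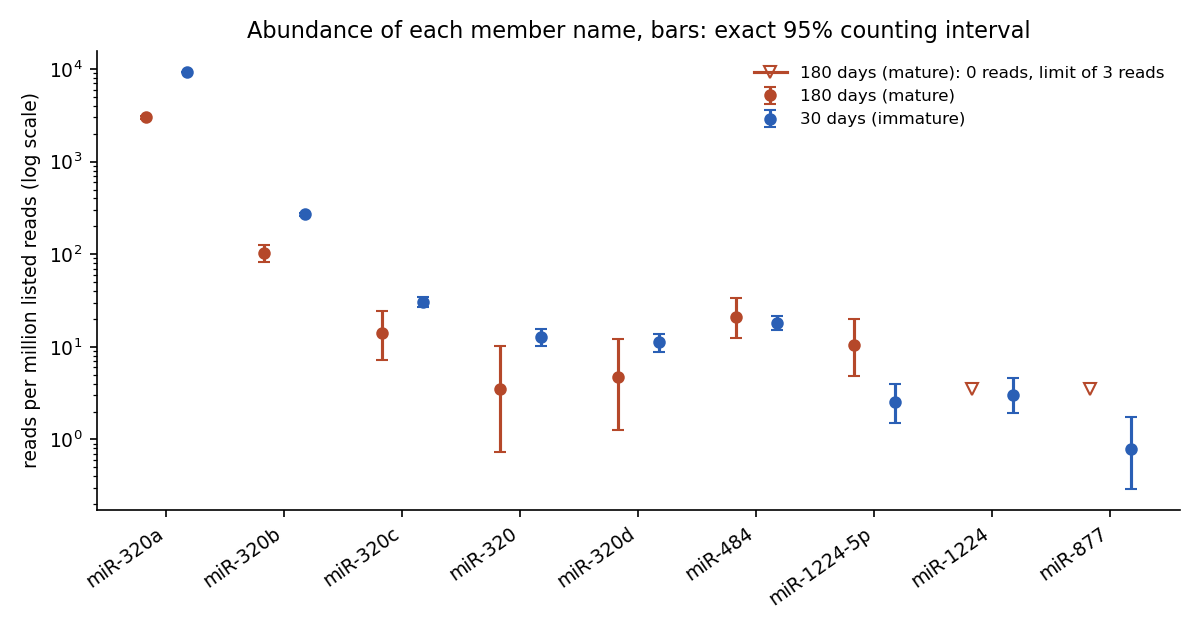
RPM (log scale) of each member name in the 180-day library (left, red) and the 30-day library (right, blue), with exact 95% counting intervals and, for 0 reads, an open triangle at the limit of 3 reads. The 5 miR-320 names sit lower at 180 days, from 3029 against 9313 RPM for miR-320a down to 3.52 against 12.6 RPM for miR-320. The intervals of the libraries overlap for miR-484, for miR-320d and, narrowly, for miR-320.

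The lettered miR-320 names are separate genes in primates, and here each had a ratio below 1, as did miR-320a. miR-320b had 88 reads (103 RPM) at 180 days against 2026 reads (269 RPM) at 30 days, and the ratio was 0.384 (0.306 to 0.475). miR-320c had 12 reads at 180 days against 230 at 30 days, and the ratio was 0.461 (0.235 to 0.821). The frog entry, listed as plain miR-320, had 3 reads at 180 days against 95 at 30 days, and the ratio was 0.279 (0.0565 to 0.840). These were called lower, as was miR-320a. With perfectly matching tags alone, miR-320b was at 0.225 and miR-320c, from 2 reads at 180 days, at 1.36 (0.149 to 6.001) and not called. With tags of 2 or more reads, plain miR-320 was at 0.294 (0.0348 to 1.11) and not called. miR-320d had 4 reads at 180 days and 84 at 30 days, and its ratio of 0.421 had an interval that included 1 (0.112 to 1.12), so it was not called.

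These names differ from miR-320a only near the 3′ end, and the bases after the point of divergence are in capitals below.
human miR-320b: aaaagctgggttgagagggcAA
human miR-320c: aaaagctgggttgagagggT
human miR-320d: aaaagctgggttgagaggA
frog miR-320: aaaagctgggttgagaggTGA
The divergence in miR-320b, miR-320c and miR-320d consists of A or T bases alone, so a read of any of them has the same letters as a shortened miR-320a with A or T added. Of the reads under all names other than miR-320a, 70 of 107 at 180 days (65.4%, 55.6 to 74.4%) and 2119 of 2435 at 30 days (87.0%, 85.6 to 88.3%) were such a stretch of miR-320a, with or without A or T behind it. For miR-320b these were 58 of 88 reads at 180 days and 1833 of 2026 at 30 days. Reads of separate miR-320b, miR-320c or miR-320d genes would fall in these shares too, so the shares cannot tell such genes from miR-320a. Because the letters are the same, the counts of these names are no measure of separate genes.

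Part of the remaining miR-320b reads at 180 days came from another sequence. In that library 15 of its 88 reads, in 3 tags, could not be lined up with miR-320a without gaps, against 0 reads of this sequence in the 30-day library. The most read of the 3 tags, with 12 reads, had 1 mismatch and 4 unmatched bases.
most read of these tags, named miR-320b: taaaagcttggtgagcaagggcaa
With the reads that could be lined up alone, the ratio of miR-320b was 0.319 (0.249 to 0.403), close to that of miR-320a.

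**Figure D2:**
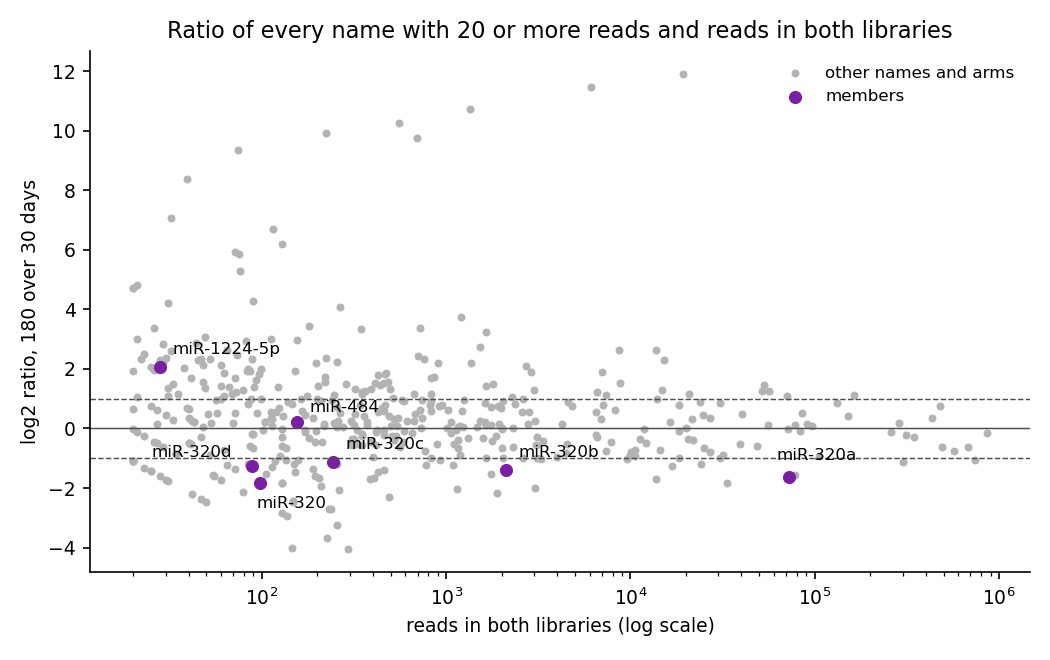
Log2 ratio of the 180-day to the 30-day library against total reads (log scale) for names with 20 or more reads and reads in both libraries, members in purple, with dashed lines at 2-fold. miR-320a sits at -1.62 and miR-320b at -1.38, below the lower line, miR-484 at 0.21 near the middle and miR-1224-5p at 2.06 above the upper line.

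The most read tags of the miR-320 family were mostly lower at 180 days. The family comprised 1963 distinct tags, 276 of them in the 180-day library and 1899 in the 30-day library, with 212 in both. Of the 133 tags with 20 or more reads, 48 (36.1%) were called lower, 0 higher and 85 neither, and 7 had a ratio above 1. By the same rule 9.34% of all 6888 listed tags with 20 or more reads were called lower and 17.1% higher. Among the 40 tags with 100 or more reads, 35 (87.5%) were called lower. Of all 2262 listed tags with 100 or more reads, 20.6% were called lower and 16.8% higher. For family tags with that many reads and reads in both libraries, the median ratio was 0.306, within a range of 0.0622 to 1.23. The counting interval of 30 of the 40 family tags held the family's ratio of 0.327. All these tags are parts of the family's count, and most of their reads came from the 30-day library. They therefore lend its ratio no separate support.

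The 5 most read tags are shown to make the 3′ ends visible, with bases that do not belong to the miR-320a entry in capitals.
listed form: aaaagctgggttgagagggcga
with added A: aaaagctgggttgagagggcgaA
with added T: aaaagctgggttgagagggcgaT
1 base shorter with added T: aaaagctgggttgagagggcgT
1 base shorter: aaaagctgggttgagagggcg
The listed form had 1080 reads at 180 days against 31630 at 30 days, and the ratio was 0.302 (0.284 to 0.320). The form with an added A had 249 and 7925 reads at 180 and 30 days, a ratio of 0.277 (0.244 to 0.315). The form with an added T had 241 and 6640 reads, a ratio of 0.321 (0.281 to 0.365). The intervals of both these forms overlapped that of the listed form. The shortened form with an added T had 177 and 4032 reads, a ratio of 0.388 (0.332 to 0.451), and it outnumbered the same shortened form without the T, which had 57 and 1654 reads. A listed form with its last A misread as T has the same letters as the shortened form with an added T.

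Additions at the 3′ end were common on miR-320. Measured against each read's own entry, 45.4% of miR-320a reads (43.5 to 47.4%) at 180 days and 42.7% (42.3 to 43.0%) at 30 days ended in 1 to 4 bases that extended or mismatched it. The median over names with 100 or more reads was 19.3% at 180 days (175 names) and 18.6% at 30 days (305 names), and miR-320a lay above 87.4% of names at 180 days and 81.6% at 30 days. Whether an added base was encoded next to the miRNA in the pig genome was not tested.

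Set against miR-320a, 41.7% of all family reads (39.9 to 43.6%) at 180 days and 45.8% (45.4 to 46.1%) at 30 days ended exactly where the entry ends. Another 29.8% (28.1 to 31.6%) at 180 days and 28.7% (28.3 to 29.0%) at 30 days had the full entry with A or T added. Shortened reads with A or T added took 13.0% (11.7 to 14.3%) at 180 days and 11.8% (11.5 to 12.01%) at 30 days, and shortened reads without additions took 2.49% and 3.13%. Of the reads that stopped 1 base before the end of the entry, 274 of 332 (82.5%) at 180 days and 6305 of 8253 (76.4%) at 30 days carried an addition. Of those that reached the end, 41.7% did so at 180 days and 38.5% at 30 days. An addition that repeats the entry's own final A cannot be recognised after the shorter end. A full-length read with its final A misread as T counts as a shorter read with an addition. The first pair of shares can therefore err in either direction.

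**Figure D3:**
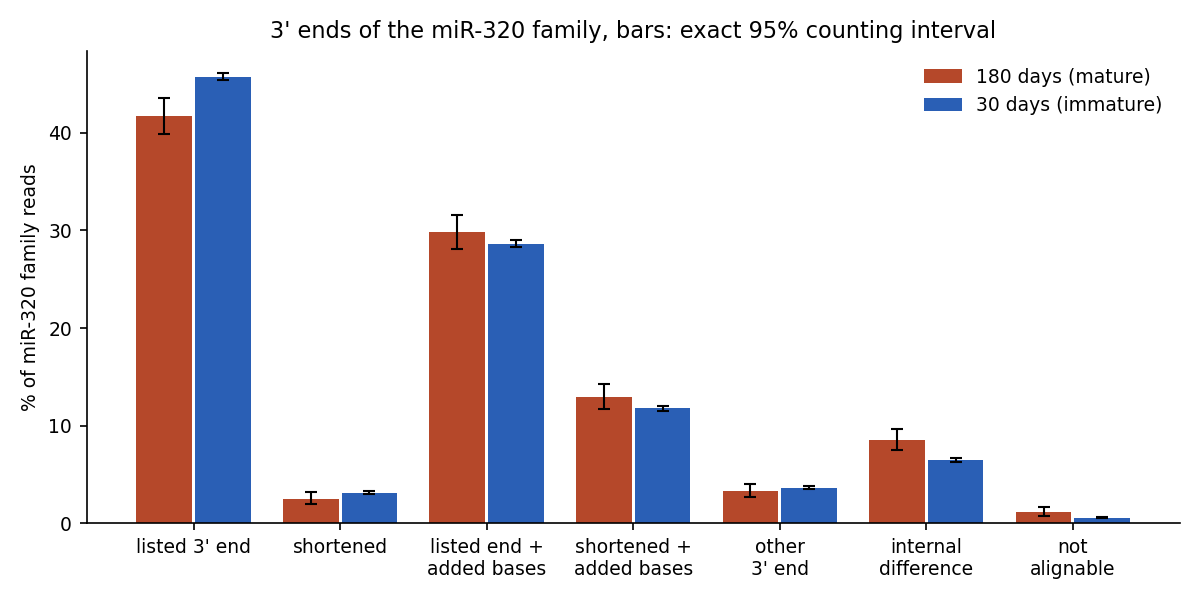
Percent of miR-320 family reads by the state of their 3′ end relative to the miR-320a entry, in the 180-day library (left bars, red) and the 30-day library (right bars, blue), with exact 95% counting intervals; added bases are A or T. The listed end is the largest class in both, at 41.7% and 45.8%, followed by the listed end with added bases at 29.8% and 28.7%.

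The family's ratio was closer to 1 in reads with 3 or 4 added bases. Reads with 0 added bases had a ratio of 0.296 (0.279 to 0.314), and those with 1 added base 0.311 (0.288 to 0.335). The ratio was 0.381 (0.338 to 0.427) for 2 added bases, 0.547 (0.448 to 0.663) for 3, and 0.967 (0.592 to 1.504) for 4, the last from 22 reads at 180 days and 201 at 30 days. Both tags below carry longer additions, the added bases again in capitals.
with 2 added bases: aaaagctgggttgagagggcgaAT
with 3 added bases: aaaagctgggttgagagggcgaTAT
The first had 86 reads at 180 days against 1395 at 30 days, and the ratio was 0.544 (0.433 to 0.677). The second had 22 reads at 180 days against 158 at 30 days, and the ratio was 1.23 (0.749 to 1.93), which was the highest of any miR-320 tag with 100 or more reads. Tags with additions of the same length differed. On the full entry, an added AA was at 0.440 and an added TT at 0.425. On the form 1 base shorter, an added TA was at 0.357, TAT at 0.503 and TTT at 1.01. An added TAA on that form was at 0.145 (0.0173 to 0.534) and called lower, from 2 reads at 180 days against 122 at 30 days.

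A shift to longer additions was not limited to miR-320. Over reads with A or T additions, measured against each name's own entry, those with 2 or more added bases made up 35.01% of the miR-320 family at 180 days and 26.7% at 30 days. Over all other names with 20 or more reads over both libraries, they made up 18.1% at 180 days and 15.3% at 30 days. Of 77 other names with 100 or more such reads in each library, 15 had a lower share at 180 days, and the median difference was 3.37 percentage points, against 8.36 for the miR-320 family. Perfect matches to an entry made up 59.4% of all listed reads at 180 days and 63.6% at 30 days, and their part in these shares was not tested. Of these 77, 64 had a smaller difference than the family. Additions of A alone took 30.4% of tailed miR-320 reads at 180 days and 36.8% at 30 days. Among the 77 names the share of A alone was lower at 180 days in 36, and its median was 52.5% at 180 days and 55.4% at 30 days. The median difference by name was 0.139 percentage points, against -6.37 for the miR-320 family, and 15 of the 77 fell further.

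**Figure D4:**
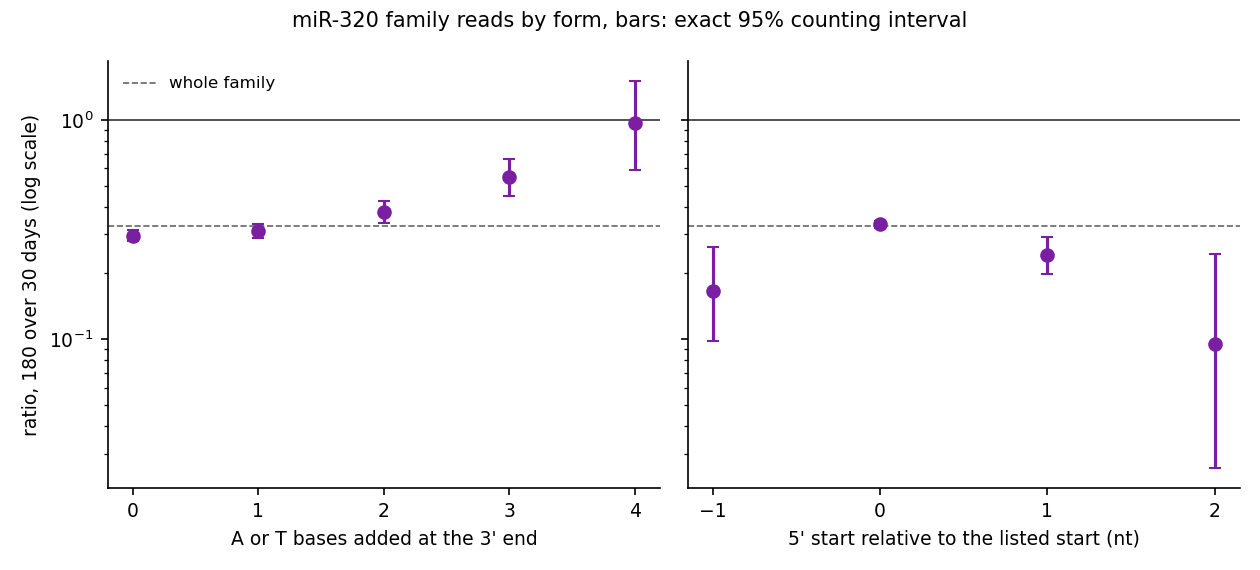
Ratio of the 180-day to the 30-day library (log scale) for miR-320 family reads by the number of A or T bases added at the 3′ end (left) and by the 5′ start relative to the listed start (right), with exact 95% counting intervals and the family's ratio of 0.327 as a dashed line. The ratio goes from 0.296 without additions to 0.967 with 4, and shifted starts lie below the listed start.

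The 5′ end fixes the seed, and most miR-320 reads began at the listed base. Of the family's reads, 93.9% (92.9 to 94.8%) at 180 days and 92.1% (91.9 to 92.3%) at 30 days did so. Reads that began 1 base later took 4.09% (3.38 to 4.91%) at 180 days and 5.52% (5.35 to 5.68%) at 30 days. As the miRNA opens with a run of A, such a read has the same letters as one that lost an A in sequencing. Reads that began 1 base earlier took 0.670% (0.397 to 1.06%) at 180 days and 1.32% (1.24 to 1.41%) at 30 days.
1 base later: aaagctgggttgagagggcga
1 base earlier: gaaaagctgggttgagagggcga
The later start had a ratio of 0.243 (0.199 to 0.294) and the earlier one of 0.166 (0.0978 to 0.263), both with intervals below that of the listed start at 0.334 (0.321 to 0.347). Over names with 100 or more reads the leading start held a median of 95.9% of reads at 180 days and 95.3% at 30 days. For miR-320a it held 94.6% at 180 days and 92.2% at 30 days, more than in 41.1% and 36.7% of those names.

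No read in either list carried the name of the other arm of miR-320, of miR-484 or of miR-877, and none was named miR-1224-3p. A count of 0 allows as much as 3.52 RPM at 180 days and as much as 0.399 RPM at 30 days. For miR-320 this limit is 3 reads against 2688 reads of the listed arm at 180 days and 72525 at 30 days. The entries against which the authors matched their tags may not have included the other arms.

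miR-484 was scarce and did not differ detectably. It had 18 reads (21.1 RPM) at 180 days and 137 reads (18.2 RPM) at 30 days. The ratio was 1.16, and at this depth nothing between 0.668 and 1.90 could be told apart from it. With the lowest whole-library totals it was 0.139 (0.0799 to 0.228, counting error only) and called lower. In contrast to miR-320, it ranked 306th at 180 days and 282nd at 30 days. The interval lay wholly above that of the miR-320 family (0.315 to 0.340).

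The miR-484 reads were mostly the listed form and its 3′ variants, shown with added bases in capitals.
listed form: tcaggctcagtcccctcccgat
with added T: tcaggctcagtcccctcccgatT
1 base shorter: tcaggctcagtcccctcccga
2 bases later: aggctcagtcccctcccgat
The listed form had 11 reads at 180 days and 71 at 30 days. The form with an added T had 2 and 13 reads at 180 and 30 days, and the shorter form had 0 and 13. The listed start carried 15 of 18 reads at 180 days (83.3%, 58.6 to 96.4%) and 133 of 137 at 30 days (97.1%, 92.7 to 99.2%). All 3 other reads at 180 days were the tag that began 2 bases later, which had 1 read at 30 days. Additions or mismatched ends were found on 4 reads at 180 days (22.2%, 6.41 to 47.6%) against 44 at 30 days (32.1%, 24.4 to 40.6%).

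The mirtron miR-1224 was rarer still, and its reads were divided among entries of different length. The name miR-1224-5p pooled a human entry of 19 nt with the chimpanzee entry of 24 nt. The human entry had 1 read at 180 days and 4 at 30 days, and the chimpanzee entry had 8 and 15. The cow and mouse entries, named plain miR-1224, have 21 nt. All names together had 9 reads (10.6 RPM) at 180 days and 42 reads (5.58 RPM) at 30 days, a ratio of 1.89 whose interval included 1 (0.810 to 3.94). Under the name miR-1224-5p alone, the 9 reads at 180 days stood against 19 at 30 days, and the ratio of 4.18 (1.67 to 9.70) was called higher. It was not called with tags of 2 or more reads, at 4.42 (0.973 to 16.5), nor per read of the whole library, at 0.5003. The plain name miR-1224, given from the cow and mouse entries, had 0 reads at 180 days against 23 at 30 days. A count of 0 at 180 days allows 3.52 RPM, above the 3.06 RPM at 30 days, so no difference was detectable for it. The call for miR-1224-5p therefore rests on how reads of 1 arm were named.

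The cow entry ends 3 bases before the chimpanzee one, and the most read tags of each library are shown with added bases in capitals.
cow miR-1224 and leading tag at 30 days: gtgaggactcgggaggtggag
full chimpanzee entry: gtgaggactcgggaggtggagggt
leading tag at 180 days: gtgaggactcgggaggtggagggtTT
second leading tag at 180 days: gtgaggactcgggaggtggagggtAT
The cow form had 0 reads at 180 days and 10 at 30 days. The full chimpanzee form had 0 and 3 reads, the form with added TT 2 and 1 reads, and the form with added AT 2 and 0 reads, at 180 and 30 days. Tags that began with the first 16 bases of the miRNA numbered 8 reads at 180 days and 33 at 30 days. Of these, 7 of 8 at 180 days (87.5%, 47.3 to 99.7%) and 13 of 33 at 30 days (39.4%, 22.9 to 57.9%) were 23 nt or longer. The intervals overlapped, which alone does not show that the shares were alike. With 8 reads at 180 days and 1 library per age, the difference in length was not tested.

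**Figure D5:**
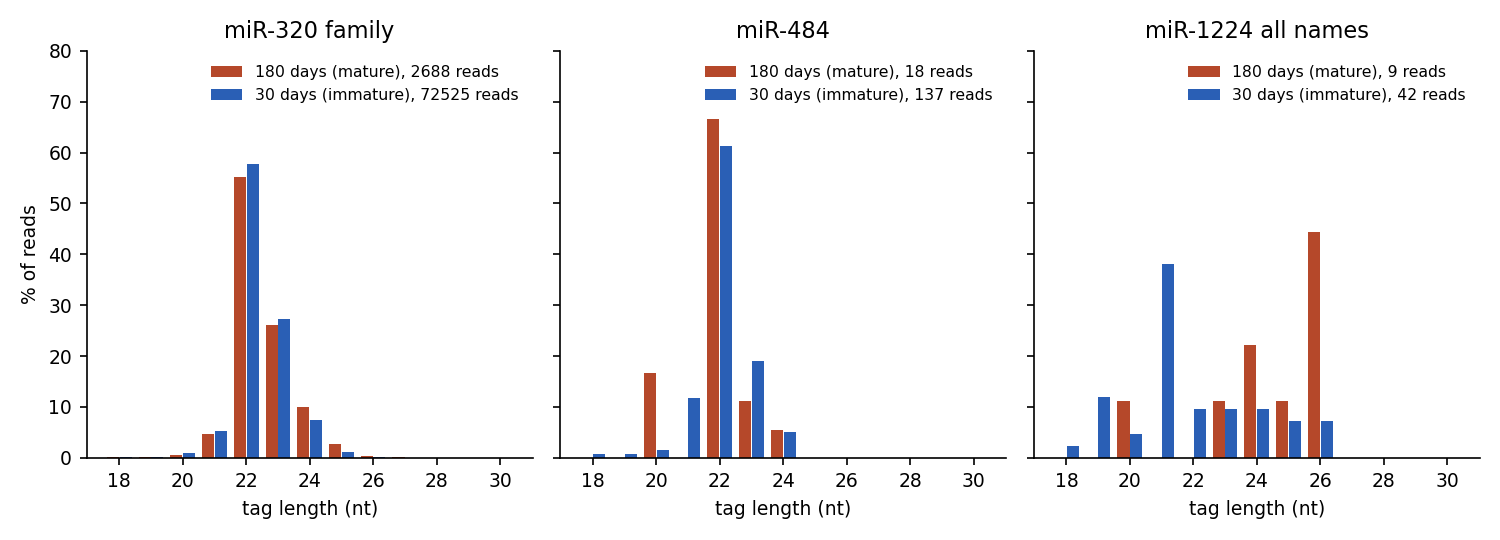
Percent of reads by tag length in nucleotides for the miR-320 family, miR-484 and all miR-1224 names, in the 180-day library (left bars, red) and the 30-day library (right bars, blue), with the number of reads in each legend. The miR-320 family and miR-484 peak at 22 nt in both libraries, whereas miR-1224 peaks at 26 nt with 9 reads at 180 days and at 21 nt with 42 reads at 30 days.

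All of the miR-1224 tags that could be lined up with the entry, 8 of 9 reads at 180 days and 33 of 42 at 30 days, began at its first base, the one that follows the splice site in a mirtron. The other reads under the name were matches that needed gaps or many mismatches. They included all 6 reads given the mouse entry, which occurred in the 30-day library alone.

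No read of miR-877 itself was found. The name had 0 reads at 180 days and 6 reads in 5 tags at 30 days, and 0 of these 6 were perfect. Each differed from the 20-nt entry by 3 or more mismatched or unmatched bases, with 16 or 17 matching ones. No tag in either list, whatever its name, began with the first 18 bases of the entry. The name is thus listed without evidence of the miRNA at this depth, which allows as much as 3.52 RPM at 180 days and as much as 0.399 RPM at 30 days.

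Other miRNAs with unusual routes of processing were compared as lists. Of 18 other mirtron names known from mammals, 6 names and arms were listed, with 0 reads at 180 days and 10 at 30 days in all, so none reached 20 reads. The most read of them, miR-1227, had 0 reads at 180 days and 4 at 30 days. Among the small RNAs cut from snoRNA or tRNA, 3 of 3 names with 20 or more reads were called higher in the 180-day library, against 29.4% of all names. miR-664, from a snoRNA host, had 103 RPM at 180 days and 22.1 RPM at 30 days, a ratio of 4.68 (3.57 to 6.10). miR-1839, also from a snoRNA, had 142 RPM and 48.2 RPM at 180 and 30 days, a ratio of 2.94 (2.38 to 3.63). miR-1983, from a tRNA, had 24 and 25 reads, a ratio of 8.48 (4.64 to 15.5). Per read of the whole library none of the 3 was called higher, at 0.560 for miR-664, 0.352 (called lower) for miR-1839 and 1.01 for miR-1983. miR-1248 had 2 reads at 180 days and 6 at 30 days, too few to be called.

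miR-451, which AGO2 cuts in place of Dicer and which marks red blood cells, was called higher, at 3774 RPM at 180 days and 1535 RPM at 30 days, a ratio of 2.46 (2.36 to 2.56). It was not called with TMM factors, at 1.96, or without the most abundant names, at 1.88, and per read of the whole library it was called lower, at 0.294. Other red blood cell names did not rise with it and were not called. miR-144 was at 0.833 (0.553 to 1.21), miR-144* at 0.868 (0.614 to 1.20) and miR-486-5p at 0.697 (0.533 to 0.898). miR-1306, whose hairpin lies in the DGCR8 transcript and is cut by the Microprocessor, was not called, with 130 RPM at 180 days and 135 RPM at 30 days and a ratio of 0.965 (0.786 to 1.17), though per read of the whole library it was 0.115 and called lower.

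The names with a ratio nearest to that of the miR-320 family were sought among those with 100 or more reads. With 2 libraries, likeness is the difference between 2 log2 ratios. The nearest were miR-495 at 0.329 (0.130 to 0.691), miR-199* at 0.336 (0.324 to 0.349) and miR-379 at 0.314 (0.170 to 0.533). For miR-484 they were miR-450b at 1.16 (0.957 to 1.41), miR-130b at 1.17 (0.997 to 1.36) and miR-139-5p at 1.15 (0.820 to 1.59).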

How the data were processed

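Per the labels' protocols, gel-purified RNA of about 18 to 30 nt received adapters, was copied by 15 rounds of PCR and was read on the Illumina 1G platform. The authors deposited for each library the raw read count of each distinct tag matched to a miRNA entry of any species, with 1 name per tag. Other deposited columns hold tag and entry lengths, matching, mismatched and unmatched bases, and an alignment score that was not used. The sources used here give no aligner, miRBase release or genome build.

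Counts were summed by given name and arm after dropping species and copy number. RPM were computed over all listed reads, 852209 at 180 days and 7525725 at 30 days, where 3 reads equal 3.52 and 0.399 RPM. Ratios have exact conditional and shares exact binomial (Clopper-Pearson) 95% intervals (SciPy 1.17.1). Tags were lined up without gaps, with at most 2 mismatches outside the last 4 bases. Alternatives used edgeR 4.0.16 and DESeq2 1.42.0 for scaling only. The steps were tested on simulated data. The members and lists were chosen with earlier results of these data known. All members were named, up to 4 of each list, and the 3 names nearest in ratio. The tags printed, and the miR-320b sequence, were chosen after their values were seen.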

Additional observations from a re-analysis of the deposited data

How the results depend on the processing

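The miR-320 family and miR-320a were called lower under every alternative tried. With perfectly matching tags or tags of 2 or more reads, the totals remained all listed reads. Perfect matches made up 59.4% of these at 180 days and 63.6% at 30 days. Ratios of the family and of miR-320a were 0.301 and 0.302 with perfectly matching tags, 0.311 and 0.311 with tags of 2 or more reads, 0.261 and 0.260 with TMM factors, 0.280 and 0.278 with median-of-ratios factors, 0.2502 and 0.249 without the most abundant names, and 0.0391 and 0.0389 per read of the lowest whole-library totals. That last scaling shifts every log2 ratio by -3.06 and gave 0.0459 for miR-320b, 0.0551 for miR-320c, 0.0503 for miR-320d, 0.0334 for miR-320, 0.139 for miR-484 and 0.226 for all miR-1224 names, the last 2 then called lower. It turned miR-1224-5p to 0.5003, not called. miR-320b was 0.225 with perfect tags and 0.293 without the most abundant names. miR-320c turned to 1.36 (0.149 to 6.001) with perfect tags, from 2 reads at 180 days. Fewer reads show why its interval widened, and the cause of its turn was not tested. miR-320d was called lower under 6 alternatives, and miR-320 and miR-1224-5p were no longer called with tags of 2 or more reads.

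Of all names, 77 were called higher with a minimum of 100 reads, 251 with no minimum, 69 with perfect tags and 27 per read of the whole library, against 138. Names called lower were 33 with perfect tags, 86 with TMM factors and 396 per read of the whole library, against 53. Unlike the ratios above, these counts with perfect tags were scaled to perfect reads alone.

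Perfect tags start at the listed base by construction, which gave 100% for the miR-320 family and miR-484 in both libraries and for miR-1224 at 30 days. Counting distinct tags gave 80.8% and 69.4% for the miR-320 family at 180 and 30 days and 89.3% for miR-484 at 30 days. The share of miR-320 family reads with additions was 39.5% and 37.3% at 180 and 30 days when any base beyond the entry counted, and 43.6% at 30 days with tags of 2 or more reads, against 45.4% and 43.2%. For miR-1224 it was 100% and 7.41% with tags of 2 or more reads, against 88.9% and 33.3%. Counting by sequence could not separate the miR-320 names, and no perfect tag of miR-1224 or of miR-320 was left at 180 days. No paired analysis was possible because each age had 1 library. At 180 days the 18 reads of miR-484, 9 of miR-1224 and 4 of miR-320d limit what could be detected.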
